A study of Mus musculus with 29 samples.

Results

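The calmodulin-dependent kinases described here are 10 genes chosen by symbol: Camk2a, Camk2b, Camk2d and Camk2g, Camk1, Camk1d, Camk1g and Camk4, and Camkk1 and Camkk2. They were found by gene name among the 15672 genes listed in any of 4 deposited gene tables, and all 10 were listed in each table. The study put RNA-seq of polyadenylated RNA beside contextual fear conditioning, in which a mouse learns to fear a chamber where its feet were shocked. All mice were male, 3 months old, individually housed and of the strain the labels spell C56BL/6. In CA1, the main output field of the hippocampus, the groups were mice killed 1 h after a new context plus a 0.7 mA footshock (4 libraries), mice killed 1 h after the context alone (5 libraries) and naive mice (5 libraries). In the anterior cingulate cortex (ACC), a frontal region used in recalling older memories, they were mice killed 4 weeks after context plus shock, mice killed 4 weeks after the context alone, and naive mice (5 libraries each, 29 in all). The labels give no age at death for naive ACC mice, so age and 4 weeks of waiting cannot be told apart from training in ACC, and region cannot be told apart from time after training. Whether naive CA1 and naive ACC libraries came from the same mice is not stated.

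When a neuron's calcium rises, calcium-loaded calmodulin binds these kinases and frees their active site. CaMKII is a large ring of alpha, beta, gamma and delta subunits that phosphorylate each other, stay active after the calcium has gone and strengthen excitatory synapses. CaMKI and CaMKIV need a further phosphate from a CaMK kinase; CaMKIV works mainly in the nucleus, where it phosphorylates CREB, and CaMK kinase 2 also acts on AMPK, a sensor of cell energy.

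The deposited values were 1 base mean (normalised counts averaged over the libraries compared), 1 log2 fold change and 1 p per gene for each trained group against naive mice of the same region. Neither values per library nor depths were given, so no spread over mice could be shown and the p-values carry the only replicate error. The error of a fold change was taken as the fold change over the normal score of its p, and 95% intervals follow from it. Implied errors of the 10 genes lay between 0.0263 and 0.125 on the log2 scale. A gene counts as called at a deposited adjusted p under 0.05, and positive values are higher in trained mice. Both comparisons of a region share their naive libraries, so their fold changes are not independent.

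CaMKII subunits made up most of the kinase message. Per kb of the longest transcript, Camk2a (chromosome 18, 60925618 to 60988152, plus strand, mm10), which encodes the alpha subunit, was the highest of the 10 genes in all 4 tables. Its implied level in CA1 was 11915 normalised counts per kb after context plus shock and 11989 after context, against 10518 and 10435 in naive mice as implied by those tables. In ACC it was 14120 after context plus shock against 14618 in naive mice, and 13409 after context against 13389 in naive mice. The CA1 groups of trained mice thus had implied levels above naive mice and the ACC groups close to them. By the authors' test none of these differences of Camk2a was called (adjusted p = 0.152 and 0.0563 in CA1 after context plus shock and after context). Tables were normalised separately, so levels of different tables are set side by side without a test. Camk2b, the beta subunit, which binds actin, came second with 3534 to 4176 normalised counts per kb over all groups and tables. Camk2d, the delta subunit, was the lowest of the 10 with 237 to 417. Camk2a gave 68.6% to 69.6% of the summed CaMKII level per kb in trained groups and 66.8% to 70.3% in naive ones.

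Below Camk2a and Camk2b the order depended on the length used. By the longest transcript, in both CA1 tables Camk2g and then Camk4 followed by base mean per kb, with 1139 and 1060 normalised counts per kb in the table of context, followed by Camkk1 with 772 and Camkk2 with 516. In both ACC tables Camk4 stood ahead of Camk2g, with 1920 and 1753 in the table of context, followed by Camkk2 with 1299 and Camkk1 with 775. The ratio of Camkk2 to Camkk1, within a table, was 1.59 after context plus shock and 1.798 in naive mice in ACC, against 0.654 after context plus shock and 0.673 in naive mice in CA1. Camk1, Camk1d and Camk1g lay below these and above Camk2d in every table, between 415 and 802. With the union of all exons as the length, the place in the order changed for 20 of the 40 gene and table pairs, while Camk2a, Camk2b and Camk2d kept their places at the top and bottom. Camk4 then stood ahead of Camk2g and Camkk1 ahead of Camkk2 in all 4 tables, so neither pair changed its order between the regions on that scale. No spread per library was given, so whether neighbours in this order differ was not tested.

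**Figure D1:**
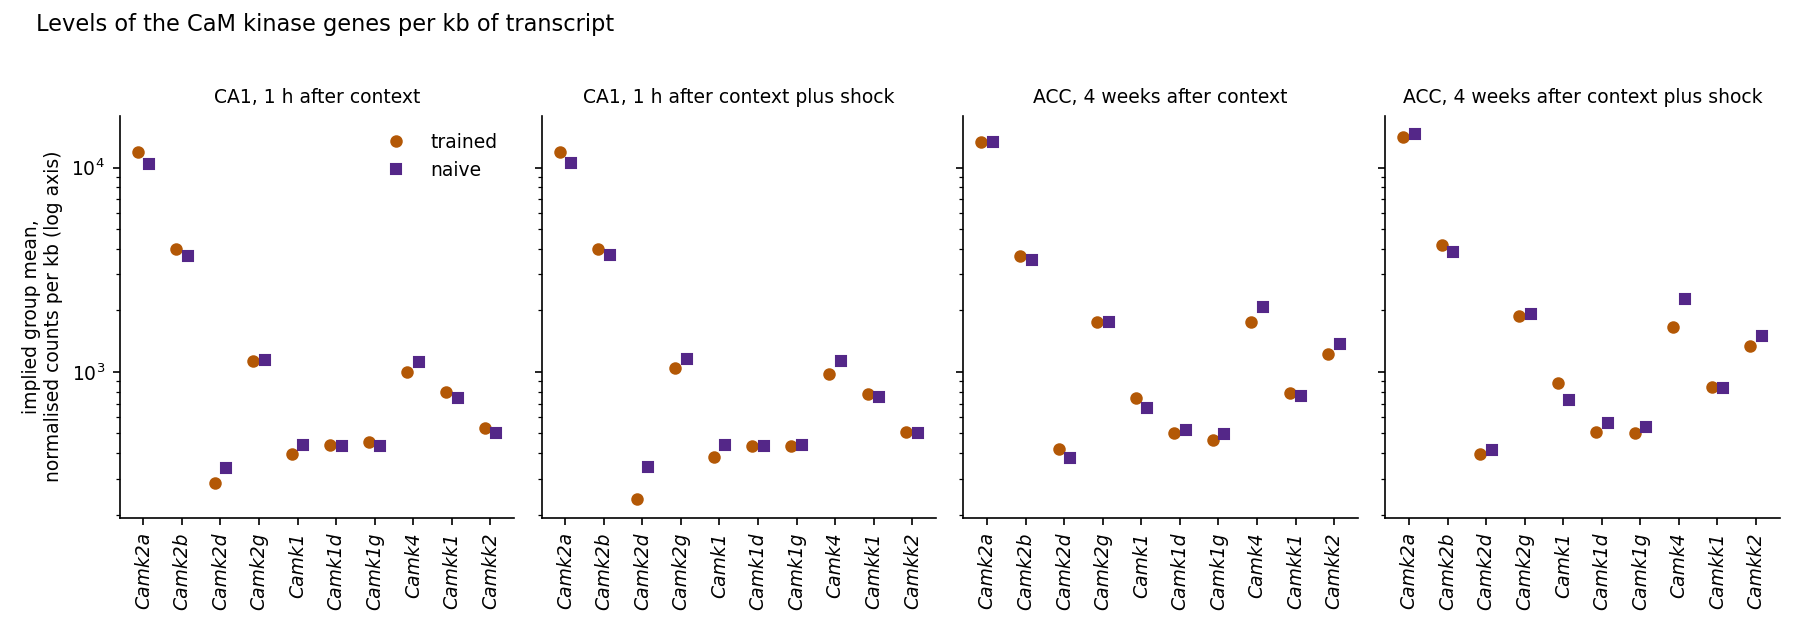
Group means implied by the base mean and fold change of the authors' deposited tables, in normalised counts per kb of the longest transcript (log axis), for trained mice (circles) and naive mice (squares) in the 4 comparisons; no spread over libraries was available. Camk2a lies highest and Camk2d lowest in every group, and the gap between circle and square is widest for Camk2d in CA1 after context plus shock and for Camk4 in ACC after context plus shock.

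In CA1 1 h after context alone, none of the 10 genes was called by the authors' test (DESeq2 is named in their processing notes), while 4 had an unadjusted p under 0.05. Of all genes 8.03% were called, 4.62% higher and 3.41% lower, and of genes at least as abundant as the lowest of the 10 11.6% were called. Camk2a stood at a log2 of 0.20 in the authors' deposited table (interval 0.06 to 0.34, adjusted p = 0.0563), with implied means of 59587 normalised counts after context and 51863 in naive mice. Camk4 lay on the other side, at -0.16 in the authors' deposited table (interval -0.28 to -0.05, adjusted p = 0.0618). Camk1 at -0.15 and Camk2b at 0.11 in the authors' deposited table made up the other two, with adjusted p of 0.175 and 0.226. Among genes with a base mean of at least 50, the adjusted p of Camk2a was 0.0495. With a trend of fold changes on length and base composition of the transcript subtracted, Camk2a stood at 0.12 (adjusted p = 0.424).

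In CA1 1 h after context plus shock, 3 of the 10 genes fell and none rose, beside 2.84% of all genes called lower, 3.21% called higher and 6.05% called either way (6.94% of genes at least as abundant as the lowest of the 10). Camk2d (chromosome 3, 126596302 to 126844913, plus strand) had an implied mean of 1312 normalised counts after context plus shock and 1881 in naive mice. It was 1.43-fold lower in the authors' deposited table (log2 -0.52, interval -0.75 to -0.29, adjusted p = 0.000744), the largest change of the 10 genes in any table. Camk4 (chromosome 18, 32939041 to 33195767, plus strand), the nuclear kinase, had implied means of 2667 after context plus shock and 3064 in naive mice. Its log2 fold change was -0.20 in the authors' deposited table (interval -0.31 to -0.09, adjusted p = 0.0123). Camk1 (chromosome 6, 113334124 to 113343984, minus strand), a cytosolic kinase of growing axons and dendrites, had 915 after context plus shock and 1058 in naive mice. Its log2 fold change was -0.21 in the authors' deposited table (interval -0.34 to -0.08, adjusted p = 0.0387). Camk1 stood at nearly the same value, -0.20, with the trend on length and base composition subtracted (adjusted p = 0.0604) and with the median of all genes subtracted (adjusted p = 0.0513), just past the threshold both times. Camk2d and Camk4 stayed called with the trend subtracted (adjusted p = 0.000615 and 0.0264).

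The other kinases were not called in CA1 after context plus shock. Camk2a had 0.18 in the authors' deposited table (interval 0.03 to 0.33, adjusted p = 0.152) and Camk2g, the gamma subunit, -0.14 (interval -0.25 to -0.03, adjusted p = 0.145). Camk2b had 0.10 and Camkk1 0.05 in the authors' deposited table. Camkk2, Camk1d and Camk1g lay between -0.01 and 0.01 in the authors' deposited table, which rounds to 2 decimals.

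Shock and context were also compared with each other in CA1. None of the 10 differences was called, against 0.00665% of all genes (1 gene). Camk2d had -0.52 after context plus shock and -0.24 after context in the authors' deposited tables, a difference of -0.28 (interval -0.61 to 0.06, unadjusted p = 0.105, adjusted p = 1.00). The other differences lay between -0.12 and -0.01, and their intervals reached no further than -0.27 and 0.18. The shared naive libraries were then allowed for by assuming a correlation of 0.5 between both fold changes, a value set and not estimated. None of the 10 was called either (0.0333% of all genes were), while 2 had an unadjusted p under 0.05.

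**Figure D2:**
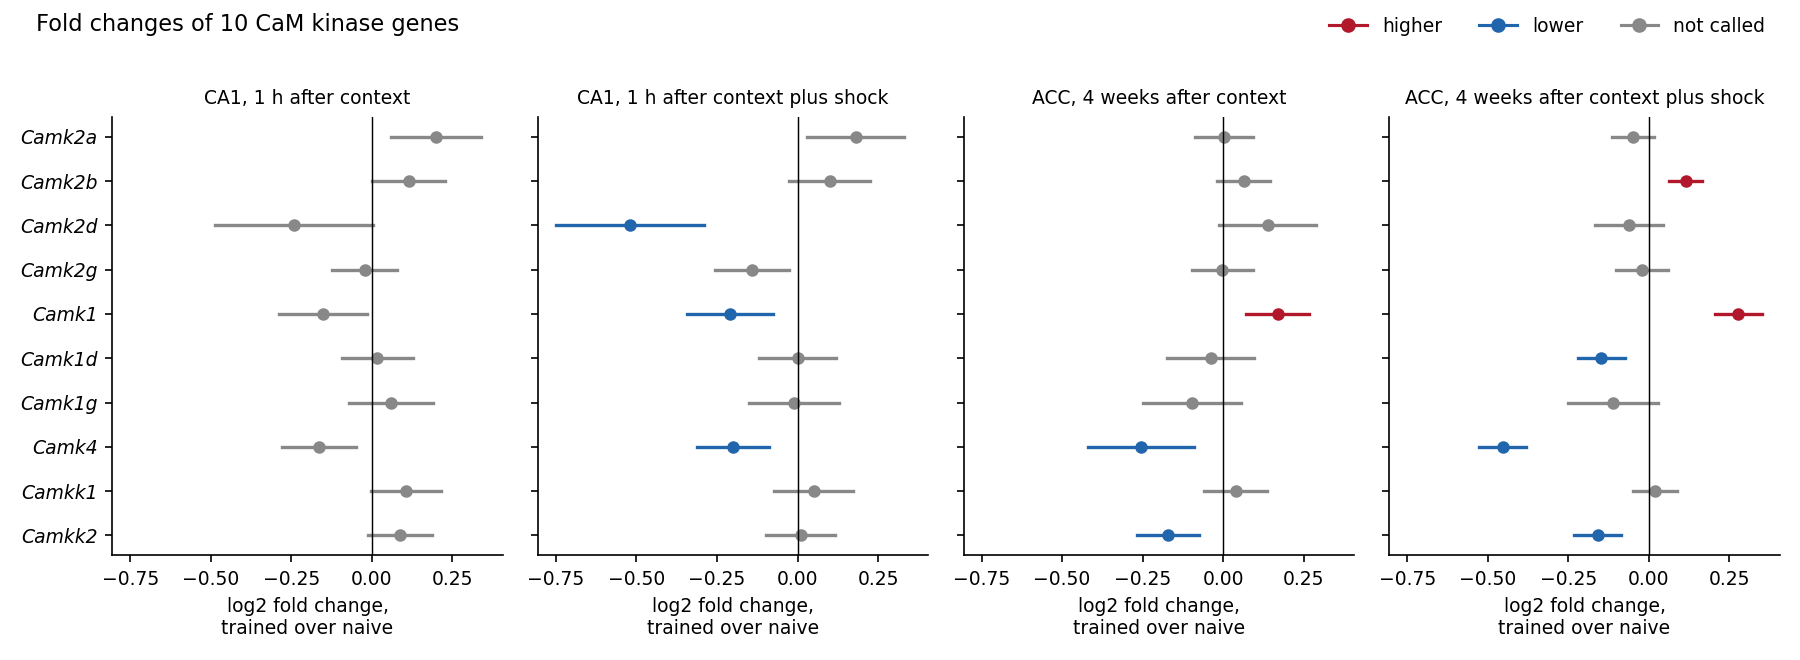
Log2 fold changes of trained over naive mice in the authors' deposited tables (points) with 95% intervals implied by the deposited p (lines), for the 10 kinase genes (rows) in the 4 comparisons (panels); red is higher and blue lower at an adjusted p under 0.05, grey is not called. Camk2d has the leftmost point, -0.52 in CA1 after context plus shock, and Camk1 is blue at -0.21 there and red at 0.28 in ACC after context plus shock.

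In ACC 4 weeks after context alone, 3 of the 10 genes were called, 1 higher and 2 lower, beside 19.6% of all genes (9.37% higher and 10.2% lower) and 31.2% of genes at the level of the 10, so the share was close to that background. Camk4 had implied means of 4758 after context and 5674 in naive mice. Its log2 change was -0.25 in the authors' deposited table (interval -0.42 to -0.09, adjusted p = 0.0174). Camkk2 (chromosome 5, 122731173 to 122779410, minus strand), which activates CaMKI, CaMKIV and AMPK, had implied means of 5939 after context and 6685 in naive mice. Its log2 fold change was -0.17 in the authors' deposited table (interval -0.27 to -0.08, adjusted p = 0.00482). Camk1 was higher, with implied means of 1792 after context and 1593 in naive mice and a log2 change of 0.17 in the authors' deposited table (interval 0.07 to 0.27, adjusted p = 0.00624). The kinases not called lay between -0.10 and 0.14 in the authors' deposited table, with Camk2a at 0.00 (interval -0.09 to 0.09).

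In ACC 4 weeks after context plus shock, 5 of the 10 genes were called, 2 higher and 3 lower, beside 41.6% of all genes (19.8% higher and 21.8% lower) and 64.5% of genes at the level of the 10. The share of the kinases was thus no larger than that of other genes of like abundance. Camk4 stood apart in size: its implied mean was 4526 after context plus shock and 6200 in naive mice. It was 1.37-fold lower in the authors' deposited table (log2 -0.45, interval -0.53 to -0.38, adjusted p = 4.13e-32), which placed it at rank 43 by p of 15455 genes. Camk1 had implied means of 2108 after context plus shock and 1739 in naive mice, and a log2 change of 0.28 in the authors' deposited table (interval 0.20 to 0.35, adjusted p = 2.68e-12). Camkk2 had -0.16 in the authors' deposited table (interval -0.23 to -0.09, adjusted p = 0.000110), with implied means of 6539 after context plus shock and 7300 in naive mice.

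Smaller changes were called for a beta subunit and a CaMKI gene. Camk2b (chromosome 11, 5969644 to 6066362, minus strand) had a log2 change of 0.11 in the authors' deposited table (interval 0.06 to 0.17, adjusted p = 8.05e-05). Camk1d (chromosome 2, 5293457 to 5714515, minus strand), the delta form of CaMKI, had -0.15 in the authors' deposited table (interval -0.22 to -0.07, adjusted p = 0.000416). Camk2a, Camk2d, Camk2g, Camk1g and Camkk1 were not called, at -0.11 to 0.02 in the authors' deposited table (adjusted p 0.206 to 0.707). The ratio of Camk2a to Camk2b per kb was 3.38 after context plus shock and 3.79 in naive mice. That of Camk4 to Camk1 was 1.89 after context plus shock and 3.15 in naive mice, the largest shift among the ratios computed.

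ACC fold changes followed the length and base composition of the transcript across all genes, and this bears on several kinases. Spearman's rho with transcript length was -0.53 after context plus shock and -0.61 after context, and with GC content 0.56 and 0.21, across 11506 and 11351 genes with a base mean of at least 100. Genes are not independent replicates and share the same libraries, so no p is given. With a smooth trend on both removed, Camk4 kept its value after context plus shock (-0.47, adjusted p = 1.15e-33) and after context (-0.30, adjusted p = 0.00653). Camk1 kept its call after context plus shock (0.21, adjusted p = 6.75e-07) but not after context (0.09, adjusted p = 0.261). Camkk2 likewise stood at -0.17 after context plus shock (adjusted p = 9.10e-05) and at -0.13 after context (adjusted p = 0.0733). Camk2b went to 0.06 (adjusted p = 0.115) and Camk1d, whose transcript is the longest of the 10 at 6962 bases, changed sign to 0.04 (adjusted p = 0.530) after context plus shock. Calls were gained for Camk1g after context plus shock (-0.25, adjusted p = 0.00416) and Camk2d after context (0.24, adjusted p = 0.0276). In CA1, rho with transcript length was 0.08 after context plus shock and 0.17 after context. With GC content it was 0.03 and 0.34 there, across 11229 and 11221 genes. What part of the kinases' values follows length or GC content was not tested further.

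**Figure D3:**
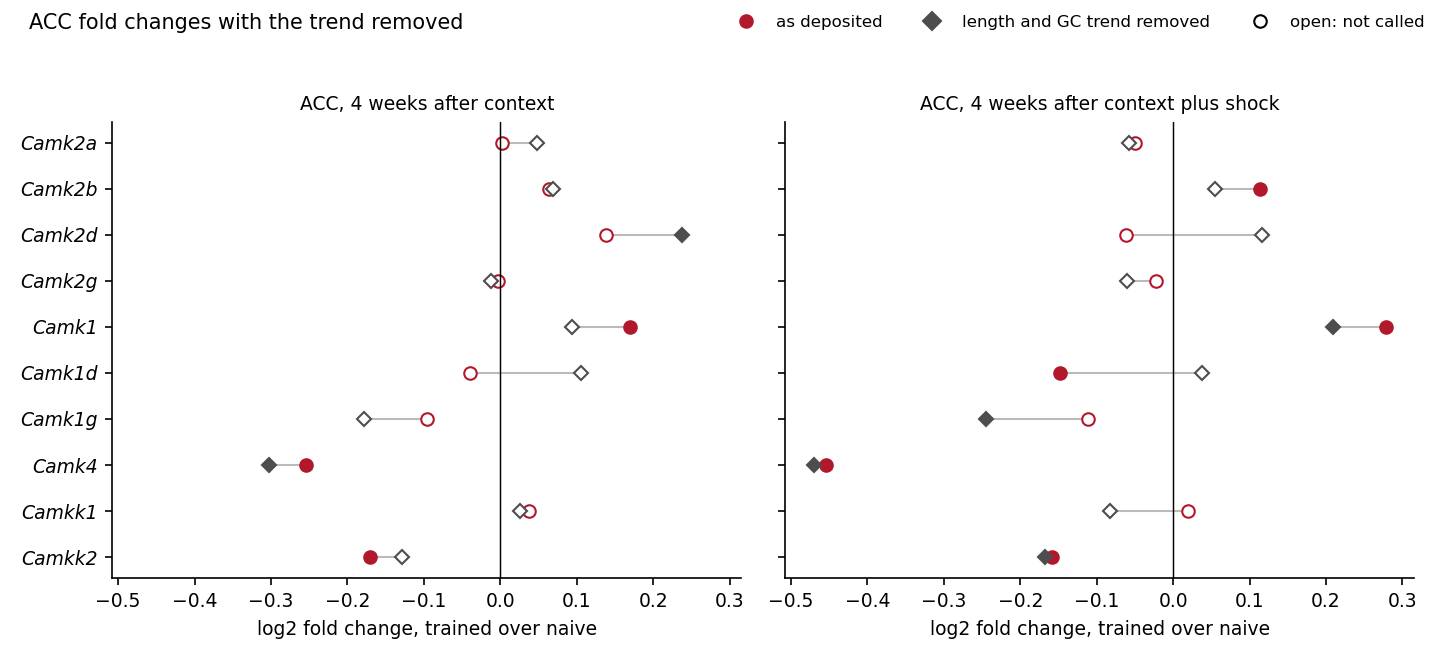
Log2 fold change of trained over naive mice in ACC, as in the authors' deposited tables (red circles) and after subtracting the trend on length and GC content (grey diamonds), for the 10 genes; filled symbols have an adjusted p under 0.05. Camk4 is filled on both scales in both panels, while Camk1d moves from -0.15 as deposited to 0.04 after context plus shock.

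The difference between context plus shock and context alone was not called for any of the 10 genes in ACC (1.59% of all genes were). Camk4 had -0.45 after context plus shock and -0.25 after context in the authors' deposited tables, a difference of -0.20 (interval -0.38 to -0.02, adjusted p = 0.347). Camk2d had -0.06 after context plus shock and 0.14 after context in the authors' deposited tables, a difference of -0.20 as well (interval -0.38 to -0.02, adjusted p = 0.361). With a correlation of 0.5 assumed for the shared naive libraries, Camk2d was called (adjusted p = 0.0390) and Camk4 was not (adjusted p = 0.0539), beside 10.5% of all genes. These calls rest on that assumed value. With the trend on length and GC content removed and no correlation assumed, 0 of the 10 genes were called, beside 112 of 15110 genes. Camk2d then differed by -0.12 (interval -0.31 to 0.06, unadjusted p = 0.192) and Camk4 by -0.17 (interval -0.35 to 0.01, unadjusted p = 0.0672). Camk1 differed by 0.11 (interval -0.01 to 0.23, unadjusted p = 0.0813) and Camkk2 by 0.01 (interval -0.11 to 0.13, adjusted p = 0.972).

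The change in ACC at 4 weeks was then set against that in CA1 at 1 h, in a test of the difference itself. After context plus shock 5 of the 10 genes differed, beside 25% of all genes. For these differences the share among genes at the level of the 10 was not computed, after either training. Camk1 was higher in ACC and lower in CA1, 0.28 and -0.21 in the authors' deposited tables, a difference of 0.49 (interval 0.34 to 0.64, adjusted p = 3.93e-08). Camk2d, at -0.06 in ACC and -0.52 in CA1 in the authors' deposited tables, differed by 0.46 (interval 0.20 to 0.71, adjusted p = 0.00331). Camk4 was lower in both and more so in ACC, with a difference of -0.25 (interval -0.39 to -0.12, adjusted p = 0.00163). Camk2a differed by -0.23 (interval -0.39 to -0.07, adjusted p = 0.0278) and Camkk2 by -0.17 (interval -0.30 to -0.04, adjusted p = 0.0446). With the trend subtracted these stood at nearly the same values without a call, -0.22 for Camk2a (adjusted p = 0.0560) and -0.16 for Camkk2 (adjusted p = 0.0815).

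After context alone 2 of the 10 genes differed between ACC and CA1, beside 14.4% of all genes. Camk1 had 0.17 in ACC and -0.15 in CA1 in the authors' deposited tables, a difference of 0.32 (interval 0.15 to 0.49, adjusted p = 0.00356). Camkk2 had -0.17 in ACC and 0.09 in CA1 in the authors' deposited tables, a difference of -0.26 (interval -0.40 to -0.12, adjusted p = 0.00441). Camk2d differed by 0.38 without a call (interval 0.09 to 0.67, adjusted p = 0.0616). With the trend removed Camk2d was called (0.47, adjusted p = 0.0298) and Camk1 and Camkk2 were not (0.24 and -0.14, adjusted p = 0.0776 and 0.272).

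**Figure D4:**
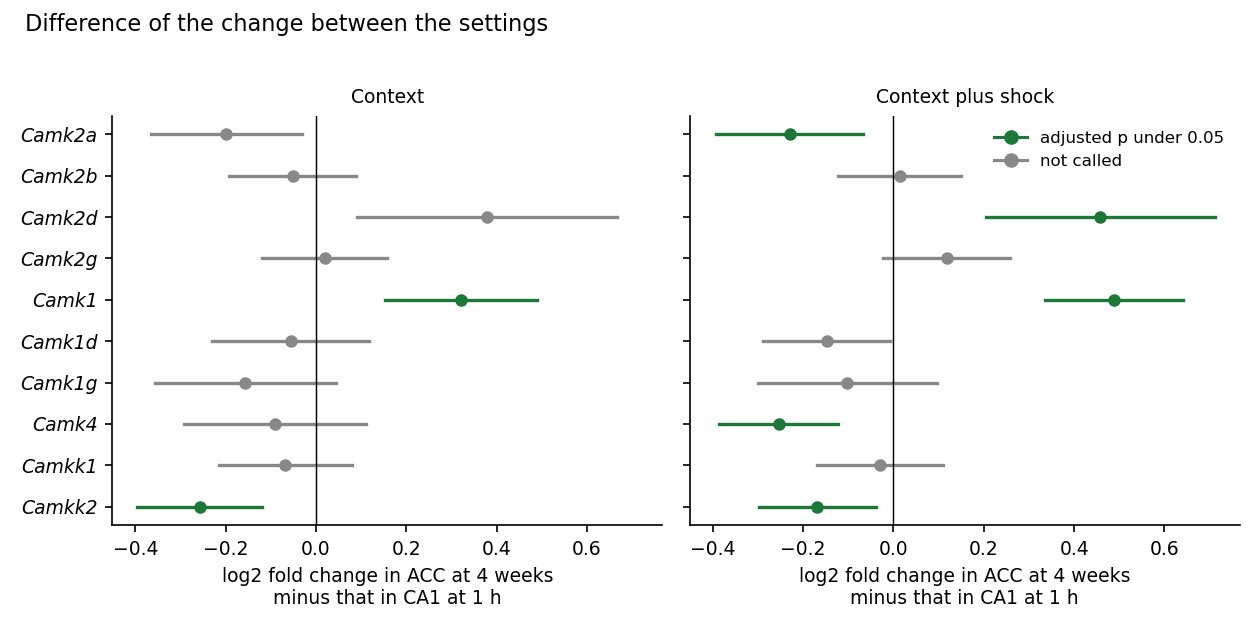
Log2 fold change in ACC at 4 weeks minus that in CA1 at 1 h (points) with 95% intervals (lines) for the 10 genes, after context (left) and after context plus shock (right); green marks an adjusted p under 0.05 over all genes. Camk1 lies to the right of 0 in both panels, at 0.32 and 0.49, and Camkk2 to the left, at -0.26 and -0.17.

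Camk1, Camk2d and Camkk2 are the called genes on which these differences turn and for which a promoter sequence was at hand, so their promoters are shown. Each run covers 250 bases before to 50 after the transcript start in RefSeq (build GRCm38.p6, the assembly behind mm10), 5′ to 3′ on the gene's strand: Camk1 at chr6:113343873-113344172 (minus), Camk2d at chr3:126596701-126597000 (plus) and Camkk2 at chr5:122779361-122779660 (minus). Capitals mark matches on either strand to TGACG, the half-site of the CREB element, and to GGGCGG, the GC box.
Camk1: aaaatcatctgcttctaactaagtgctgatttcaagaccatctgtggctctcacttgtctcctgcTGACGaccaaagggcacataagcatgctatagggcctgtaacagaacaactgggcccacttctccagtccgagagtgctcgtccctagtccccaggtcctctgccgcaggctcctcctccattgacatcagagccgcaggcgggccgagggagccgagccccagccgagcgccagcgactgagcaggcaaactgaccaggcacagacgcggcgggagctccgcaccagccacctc
Camk2d: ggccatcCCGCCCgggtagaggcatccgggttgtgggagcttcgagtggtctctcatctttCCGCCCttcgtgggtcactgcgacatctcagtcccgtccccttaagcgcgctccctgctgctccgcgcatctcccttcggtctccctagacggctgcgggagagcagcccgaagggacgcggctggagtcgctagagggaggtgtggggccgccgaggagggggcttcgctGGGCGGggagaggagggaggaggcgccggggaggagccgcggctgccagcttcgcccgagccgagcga
Camkk2: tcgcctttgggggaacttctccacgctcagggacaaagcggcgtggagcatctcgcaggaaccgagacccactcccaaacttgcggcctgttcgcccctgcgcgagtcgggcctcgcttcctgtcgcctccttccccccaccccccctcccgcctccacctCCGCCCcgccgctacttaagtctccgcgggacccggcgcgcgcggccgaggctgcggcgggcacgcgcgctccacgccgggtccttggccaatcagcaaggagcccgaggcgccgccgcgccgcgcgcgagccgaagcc
Camk1 holds 1 TGACG, at 185 bases before the start, and no GC box, Camk2d holds 3 GC boxes and Camkk2 1. Windows were found for 7 of the 10 genes, 8 windows in all with 2 for Camk1d. TGACG was in 2 of the 8 windows, those of Camk1 and Camkk1 (166 bases before the start), beside 20.8% of 32851 promoters. GGGCGG was in 6 of the 8, beside 35.7% of promoters, and the full element TGACGTCA, which contains TGACG, in 0 of the 8, beside 1.79%. These are matches of letters and no sign of binding.

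Camk1 shares 945 bases (chromosome 6, 113334124 to 113335068) with Ogg1, a DNA repair gene that reaches over its 3′ end. Whether counting used the strand is not stated, so reads of the overlap could fall to either gene. Ogg1, looked up for this reason, had log2 fold changes of 0.12 in ACC after context plus shock and 0.09 after context, and of -0.12 in CA1 after context plus shock and -0.06 after context in the authors' deposited tables, none of them called.

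The exonic bin tables give a fold change per exonic segment and hold no bin whose adjusted p reached 0.1. The fold change is read here as relative to the gene, which the headers do not state; Camk4, called lower as a gene in ACC after context plus shock, had no listed bin there. In CA1 1 bin of the 10 genes was listed in each table, while 1.14% of all genes had a listed bin after context plus shock and 1.08% after context (2.96% and 2.99% of genes at the level of the 10). It was bin E011 of Camk4 both times. Its log2 fold change was -0.03 after context plus shock (adjusted p = 7.57e-13) and -0.05 after context (adjusted p = 0.00104) in the authors' deposited tables, with mean counts of 1356 and 1354. In ACC after context the same bin was listed at 0.04 (adjusted p = 0.0103) in the authors' deposited table, and it was not listed after context plus shock. These deposited fold changes are small for such p-values. How the fold change and p of a bin were computed is not stated, so whether both describe the same change was not tested.

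In ACC 7 of the 10 genes had a listed bin after context plus shock and 8 after context, beside 11.3% and 17.9% of all genes, or 34.5% and 50.7% of genes at the level of the 10. They held 17 bins after context plus shock, 8 higher and 9 lower, and 28 after context, 10 higher and 18 lower. Camk2a accounted for most of the lower bins, with 9 after context plus shock and 13 after context. Its lower bins after context ran from E002 to E024, from -0.24 to -0.03 in the authors' deposited table. Its last bin, E030, was higher, at 0.11 after context plus shock (adjusted p = 1.12e-09) and 0.14 after context (adjusted p = 2.08e-17) in the authors' deposited tables, with mean counts of 15184 and 14422. Camk2a lies on the plus strand, so while the gene as a whole stood at -0.05 and 0.00, the lower bins lay along its length up to E028 after context plus shock and the higher one at its 3′ end. When the exons of GENCODE M21 are cut into bins, Camk2a has 30 bins, and the last is 1745 bases of 3′ UTR (chromosome 18, 60986408 to 60988152); that the authors' numbering is the same was not shown.

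Camk2b, on the minus strand, had bins E003 and E005 higher after context plus shock, at 0.10 and 0.06 in the authors' deposited table. After context E003, E004 and E005 were higher, at 0.14, 0.21 and 0.09, and E024, E026, E033 and E037 lower, at -0.21 to -0.19, in the authors' deposited table. Bin E001 of the minus-strand genes Camk1d, Camk2g and Camkk2 was higher in both ACC tables, at 0.05, 0.06 and 0.09 after context plus shock and 0.08, 0.11 and 0.12 after context in the authors' deposited tables. Camkk1 bin E019 and Camk2d bin E064, of plus-strand genes, were higher too, at 0.07 and 0.11 after context plus shock and 0.08 and 0.14 after context in the authors' deposited tables. If bins were numbered by coordinate, which was not shown, low numbers of minus-strand genes lie toward the 3′ end. The higher bins of Camk2b and these E001 bins would then lie there, like E030 of Camk2a. Exons of GENCODE M21 cut into bins give Camkk1 20 bins and Camk2d 81. Across all genes, bin E001 of minus-strand genes was higher in 485 of 496 listed cases after context plus shock and 792 of 800 after context in ACC, against 1 of 29 and 0 of 37 in CA1. The E001 bins of Camk1d, Camk2g and Camkk2 thus had the direction that most listed E001 bins of minus-strand genes had in ACC.

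**Figure D5:**
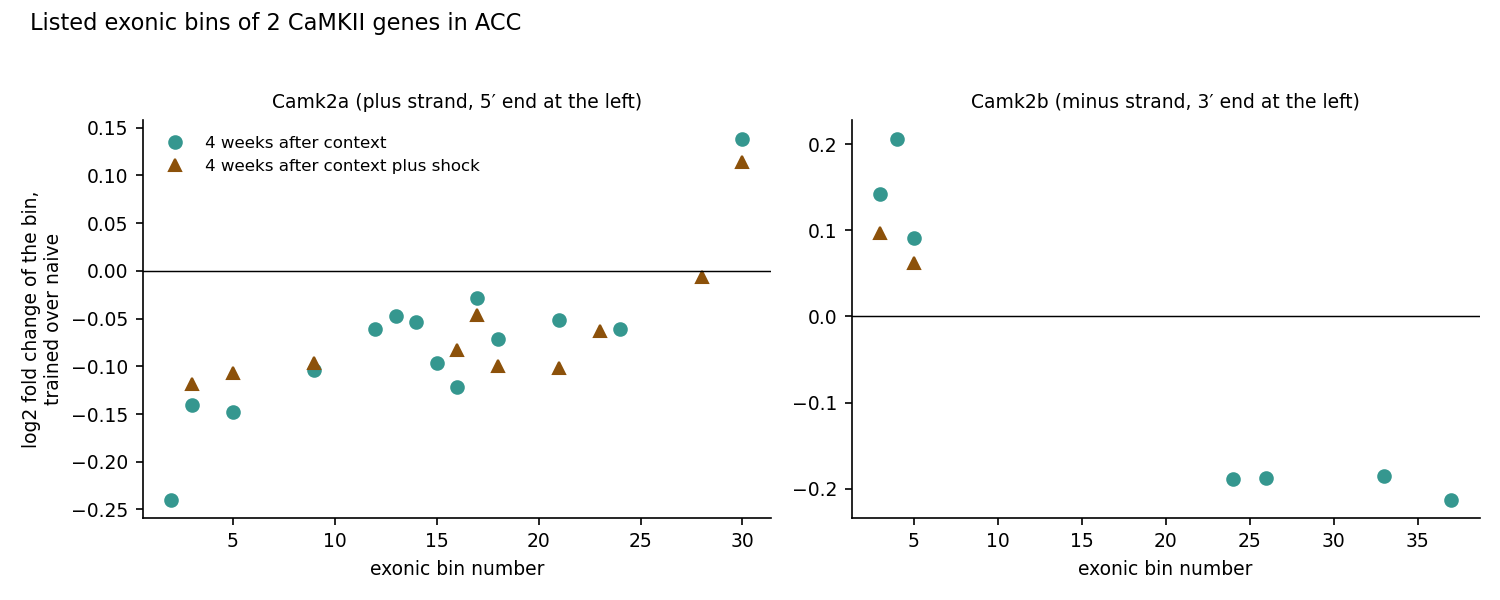
Log2 fold change of each listed exonic bin of Camk2a (left) and Camk2b (right) in ACC, by bin number, after context (circles) and after context plus shock (triangles), from the authors' deposited tables. The values are read as relative to the gene, which the headers do not state. Bins not listed are not drawn. In Camk2a the bins up to E028 lie below 0 and the last bin, E030, at 0.14 and 0.11; in Camk2b bins E003 to E005 lie above 0 and those from E024 on below.

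Genes around the kinases were described by lists of their partners, as counts of called genes. In ACC the counts stand beside 41.6% of all genes called after context plus shock and 19.6% after context (64.5% and 31.2% of genes at the level of the 10), and in CA1 beside 6.05% and 8.03%. Of the kinases' relatives and inhibitors, 0 of 11 measured genes rose and 2 fell in CA1 after context plus shock. These were the genes of both CaMKII inhibitor proteins, Camk2n2 with -0.42 (adjusted p = 0.00514) and Camk2n1 with -0.20 (adjusted p = 0.0457) in the authors' deposited table. After context 1 of 11 rose, Dapk1, a death-associated kinase, with 0.24 in the authors' deposited table (0.15 and not called with the trend removed). In ACC 2 of 12 rose and 4 fell after context plus shock, and 1 rose and 1 fell after context. Pnck, which encodes CaMKI beta, rose in ACC by 0.42 after context plus shock (adjusted p = 2.76e-14) and 0.39 after context (adjusted p = 2.19e-08) in the authors' deposited tables, and stayed called with the trend removed, at 0.21 and 0.23. Camkv, a kinase-like synaptic protein without kinase activity, rose by 0.27 after context plus shock in the authors' deposited table, and stayed called at 0.11 with the trend removed. Mylk, the myosin light chain kinase, had -0.47 after context plus shock in the authors' deposited table and -0.39 with the trend removed (adjusted p = 0.00172). Dclk1, a doublecortin-like kinase, had -0.18 there in the authors' deposited table, against 0.04 without a call once the trend was removed. Eef2k, the calmodulin-dependent kinase of elongation factor 2, had -0.26 after context in the authors' deposited table and -0.14 without a call once the trend was removed.

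In the list of calmodulin and calmodulin-binding genes few were called. Of 12 calmodulin and calmodulin-buffer genes, 1 rose and 1 fell in CA1 after context plus shock, Calm3 with 0.13 and Marcks with -0.21 in the authors' deposited table; Marcks lost its call without the trend (-0.20, adjusted p = 0.0675). After context 1 of 11 rose and 1 fell, Camta2, a calmodulin-binding transcription factor, with 0.22 and Marcks with -0.23 in the authors' deposited table; Camta2 lost its call without the trend (0.15, adjusted p = 0.208). In ACC 0 rose and 3 fell after context plus shock, and 0 rose and 1 fell after context. Camta1, a further transcription factor of this kind, had -0.27 after context plus shock and -0.19 after context in the authors' deposited tables. Once the trend was removed it had -0.11 after context plus shock (adjusted p = 0.000642) and -0.01 after context (adjusted p = 0.963).

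Anchors and substrates of CaMKII at the synapse were called higher in CA1 in 3 of 18 cases after context plus shock and 3 after context, with none lower. The AMPA receptor gene Gria1 had 0.33 after context plus shock (adjusted p = 0.000740), and the scaffold gene Dlg4 0.19 after context plus shock and 0.20 after context, in the authors' deposited tables. With the trend removed 2 were called higher after context plus shock and 1 after context; Gria1 stayed called (0.31), and Dlg4 was at 0.16 without a call in both (adjusted p = 0.112 and 0.123). In ACC 2 of 18 rose and 10 fell after context plus shock, 12 of 18 in all and close to the share of called genes at the kinases' level, and 2 rose and 8 fell after context. With the trend removed 2 rose and 7 fell after context plus shock, and 1 rose and 5 fell after context. Of those that fell, 5 and 4 were among the genes lower as deposited. Grin2a, an NMDA receptor subunit, fell in ACC to a log2 fold change of -1.09 after context plus shock and -1.05 after context, and had 0.68 and 0.76 in CA1, in the authors' deposited tables at base means of 82.9 to 115. Its values without the trend were -0.74 in both ACC tables, and in CA1 0.58 after context plus shock (adjusted p = 0.0726) and 0.65 after context (adjusted p = 0.0192). Grin2b, the NMDA receptor subunit that CaMKII binds, had -1.61 in ACC after context in the authors' deposited table (adjusted p = 1.48e-37) and -1.25 with the trend removed. Its base mean there was 185. After context plus shock Grin2b was not among the 4 called genes of the list with the smallest p. The lowest value of the list there was -1.09, that of Grin2a. The median of the list in ACC was -0.15 after context plus shock and -0.17 after context, beside 0.01 and 0.00 over all genes, and with the trend removed it was -0.07 after context plus shock and -0.10 after context.

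Nuclear partners of CaMKIV and CaMKI (CREB, its coactivators, MEF2 and class IIa HDAC genes) held 12 genes. In CA1 1 rose and 1 fell after context plus shock, Crtc3 with 0.27 and the transcription factor gene Mef2c with -0.48 (adjusted p = 5.04e-05) in the authors' deposited table. After context 2 rose, Mef2d with 0.23 and the CREB coactivator gene Crtc1 with 0.22 in the authors' deposited table, and neither was called with the trend removed. In ACC 2 rose and 5 fell after context plus shock, and 0 rose and 3 fell after context. With the trend removed 2 rose and 2 fell after context plus shock, and 1 rose and 1 fell after context. Mef2c had -0.37 after context plus shock (adjusted p = 1.99e-33) and -0.19 after context (adjusted p = 0.0445) in the authors' deposited tables. Without the trend, Mef2c had -0.13 after context plus shock (adjusted p = 0.000183) and -0.05 after context (adjusted p = 0.766). Crebbp, the acetyltransferase that binds phosphorylated CREB, had -0.33 after context plus shock and -0.53 after context in the authors' deposited tables, and stayed called at -0.15 and -0.30 with the trend removed.

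Among phosphatases, which undo the kinases' work, none of 10 calcineurin genes was called in CA1 after context plus shock and 1 fell after context, Ppp3ca with -0.17 in the authors' deposited table, against -0.16 without the trend (adjusted p = 0.0586). In ACC 1 rose and 6 fell after context plus shock, and 1 fell after context. Ppp3ca, the main catalytic subunit, had -0.34 after context plus shock in the authors' deposited table (adjusted p = 2.89e-18) and -0.22 with the trend removed. On that scale 4 of the list were lower, 3 of them among the 6. Of 10 phosphatase genes acting on CaM kinases none was called in either CA1 table. In ACC 3 rose and 3 fell after context plus shock, and 1 rose and 2 fell after context. With the trend removed 2 rose and 3 fell after context plus shock, and 1 rose and 0 fell after context. Of those that rose, 0 were among the genes higher as deposited in either table, and of those that fell after context plus shock 2 were among the lower. After context plus shock Ppp1ca went from 0.25 to 0.03 (adjusted p = 0.401) and Ppp1cb from -0.14 to 0.10 (adjusted p = 0.00839). Ppm1e, the nuclear CaM kinase phosphatase, had -0.37 after context plus shock and -0.22 after context in the authors' deposited tables, against -0.18 and, without a call, -0.09 (adjusted p = 0.531) with the trend removed. Ppp1r9a, a neurabin that brings protein phosphatase 1 to spines, had -0.48 and -0.30 in the same order in the authors' deposited tables, against -0.21 and, without a call, -0.08 (adjusted p = 0.534) with the trend removed.

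Of 14 other calmodulin effectors 2 rose and none fell in CA1 after context plus shock, and 2 rose after context. Adcy1, the calmodulin-stimulated adenylyl cyclase of memory, rose by 0.25 after context plus shock and 0.30 after context in CA1 in the authors' deposited tables, without a call once the trend was removed. In ACC 3 rose and 7 fell after context plus shock, and 2 rose and 5 fell after context. With the trend removed 4 rose and 3 fell after context plus shock, and 3 rose and 1 fell after context. Adcy1 had -0.38 after context plus shock and -0.34 after context there in the authors' deposited tables, against -0.19 and, without a call, -0.10 (adjusted p = 0.422) with the trend removed. Of 7 genes of AMPK and Akt1, further targets of the CaMK kinases, none was called in CA1 after context plus shock and 1 rose after context. In ACC 2 rose and 2 fell after context plus shock, and 1 rose after context; with the trend removed 1 rose after context plus shock and none was called after context. The AMPK catalytic gene Prkaa2 had -0.30 after context plus shock in the authors' deposited table, and 0.00 with the trend removed.

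Cell type markers bear on how far these values speak of neurons, since in bulk tissue fewer cells of a type and less RNA per cell cannot be told apart. Of 10 general neuron markers none was called in CA1, with medians of -0.01 after context plus shock and 0.00 after context, and summed base means of 178150 and 174882. In ACC 3 rose and 3 fell after context plus shock (median -0.01), and 2 rose and 1 fell after context (median 0.07). Excitatory neuron markers had 1 of 6 higher and 2 lower after context plus shock in each region and none called after context. Markers of inhibitory neurons, astrocytes and oligodendrocytes were called in 0 of 18 cases in CA1. In ACC 2 of these 18 rose and 4 fell after context plus shock, and 3 rose and 1 fell after context. All 6 CA1 markers were listed in CA1, with a summed base mean of 20652 to 21150, and 1 rose after context plus shock. All 6 neocortex markers were listed in ACC, with 9709 to 10484, and 1 rose and 1 fell in each ACC table.

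Markers of other cells moved too, also in CA1 after context, where none of the kinases was called. Endothelial markers rose in 5 of 6 cases in CA1 after context plus shock (median 0.55) and after context (median 0.49), where the other one fell, at summed base means of 3835 and 3801. In ACC 4 of the 6 fell and 1 rose after context plus shock (median -0.38), and 1 rose after context (median 0.00), at summed base means of 3725 and 3857. Striatum markers rose in 4 of 6 cases in both ACC tables, with medians of 0.57 after context plus shock and 0.49 after context and summed base means of 4898 and 4478. With the trend removed 2 of the 6 rose after context plus shock and 4 after context. Microglia markers rose in 2 of 6 cases in ACC after context plus shock and 4 after context, and in 1 and 2 with the trend removed. In CA1 after context plus shock, neocortex markers had 1 of 6 higher and 2 lower (median -0.12, lowest -0.63) and striatum markers 1 of 6 lower (median -0.08, lowest -0.95). After context there, 1 neocortex marker fell, no striatum marker was called and 1 microglia marker rose. Dentate gyrus markers had medians of 0.53 after context plus shock and 0.46 after context in CA1 with 0 of 6 called. All 6 were positive there, at 0.32 to 0.73 after context plus shock and 0.44 to 0.73 after context. In ACC Dsp was not listed, and of the 5 measured 1 rose after context plus shock and 0 after context. The part of these cells in the kinases' values was not tested.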

How the data were processed

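Libraries of CA1 and ACC RNA were made with a TruSeq RNA kit, per the labels' protocols. Named in the submitters' processing notes are STAR 2.3.0e, DESeq2, SAMtools, CASAVA 1.8.2 and the build mm10; the sources used here give neither annotation, nor strand of counting, nor the tool for bins. The authors deposited 4 gene tables with, per the file headers, the mean normalised count (base mean, a signal), the log2 fold change, and raw and adjusted p-values of each gene, and 4 tables of like form for exonic bins. Adjusted p-values match a Benjamini-Hochberg adjustment of the deposited p to within 0.0022. Headers do not give the direction of a fold change: in each region, genes whose fold change was larger in one table had a larger base mean there too (slopes of 0.46 in CA1 and 0.51 in ACC), so positive is higher in trained mice. Implied naive means from both tables of a region then differed by a log2 scale of 0.01 in CA1 and 0.13 in ACC for each of the 10 genes, as for all genes, so levels are compared within a table.

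No count model was fitted, because no values per library were given; the plan's choice for that case, the deposited adjusted p, was used, and library depth is unknown. Nothing in the labels says that libraries of a group came from separate mice, beyond 5 mice for one group, so p-values measure the spread between these libraries. Errors assume a Wald test. In CA1 after context plus shock, where values are rounded, folds under 0.05 took the error of the context table times 1.08. Implied group means assume that the base mean averages both groups by their number of libraries. Differences of fold changes used the root of summed squared errors and Benjamini-Hochberg adjustment over all genes. The 40 values of the 10 genes are from 4 such comparisons. The alternative for shared naive libraries took a correlation of 0.5 between both fold changes for every gene, a value set and not estimated. Length and GC content are those of each gene's longest GENCODE M21 transcript (99.1% of genes matched), and the trend was a spline with 5 knots. Steps were tested on simulated data. Python 3.11.15, numpy 2.4.6, scipy 1.17.1, pandas 2.3.3, scikit-learn 1.9.0 and matplotlib 3.10.9 were used.

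The kinases, 8 partner lists and 11 marker lists were chosen with earlier results of these data known. Named were all 10 kinases and, from each partner list and comparison, at most the 4 called genes with the smallest p. Some of these genes are not reported here.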

Additional observations from a re-analysis of the deposited data

Results flagged for a closer look

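Some kinases changed differently in ACC at 4 weeks and in CA1 at 1 h by a test of the difference of their log2 fold changes, over all genes. After context plus shock, Camk1 differed by 0.49, Camk2d by 0.46, Camk4 by -0.25, Camk2a by -0.23 and Camkk2 by -0.17 (ACC minus CA1). After context, Camk1 differed by 0.32 and Camkk2 by -0.26. Of these 7 values, those of Camk1, Camk2d and Camk4 after context plus shock stayed called with the length and GC trend removed, at 0.41, 0.64 and -0.29. Region and time after training cannot be told apart.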

How the results depend on the processing

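Of 300 values of single kinases under other settings, 271 kept their side of the threshold, 21 lost the call, 7 gained one, and 1 called value changed sign, Camk1d in ACC after context plus shock, at 0.037 with the length and GC trend removed. Among the 271, 20 values called under neither setting changed sign or stood at 0 under one of them, 17 with the trend removed and 3 with the median subtracted; with the trend removed Camk2d in ACC after context plus shock stood at 0.12, against -0.06 as deposited. Kinases called in CA1 after context numbered 2 at a threshold of 0.1 (Camk2a and Camk4) and 1 among genes with a base mean of at least 50, against 0. In CA1 after context plus shock there was 1 at a threshold of 0.01 and 0 with a Bonferroni adjustment, against 3; in ACC the Bonferroni adjustment left 2 after context plus shock, against 5, and 0 after context, against 3. The difference of shock and context in ACC had 1 call with a correlation of 0.5 assumed for the shared naive libraries, against 0. With the trend removed, ACC and CA1 differed for 3 kinases after context plus shock, against 5, and for 1 after context, against 2. Over all genes 3729 were called in ACC after context plus shock with the trend removed, against 6433, 1402 after context against 2987, and 587 in CA1 after context against 1214. Bins at an adjusted p under 0.05, a setting chosen after seeing the data like the trend for lists and the background at the kinases' level, numbered 16 and 24 in ACC, against 17 and 28. No paired analysis was possible because the tables hold no values per library; for the same reason no replicate could be left out.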
